A study of Mus musculus with 6 samples.

Results

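The set of cysteine, glutathione and NRF2 target genes covers how a cell obtains cysteine, builds glutathione from it and keeps its thiols reduced. It holds 10 of the 18193 genes named on the array: Cth, Cbs, Slc7a11, Gclc, Gclm, Gss, Gsr, Txnrd1, Nqo1 and Srxn1. The genes were chosen by name with earlier results of these arrays known, and every probe set annotated to exactly 1 of them was taken, which gave 21 of 34945 probe sets with 1 gene. The levels and differences of these genes are therefore given as a description, with the same quantity over all probe sets beside them.

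RNA came from C2C12 cells, a mouse myoblast line, carrying an integrin alpha7 construct that tetracycline switches on. The arrays labelled induced (3) measured RNA of cells kept for 36 h with 1 µg/ml tetracycline, and the arrays labelled noninduced (3) that of cells kept for 36 h without it. Both groups were undifferentiated and grown at 37 °C in medium with 20% serum and 0.5% chick embryo extract, and the design text calls the 3 samples of a condition biological. No array of cells without the construct that were given tetracycline was used here, so the drug and the construct cannot be told apart.

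As background, cysteine is the scarce building block of glutathione, the main soluble thiol of animal cells. Cells make it from homocysteine by transsulfuration, in which Cbs joins homocysteine to serine and Cth splits the product into cysteine, or import it as cystine through Slc7a11, the light chain of the system xc- exchanger. Glutamate-cysteine ligase, made of the catalytic subunit Gclc and the modifier subunit Gclm, performs the rate-limiting step of glutathione synthesis, and Gss completes it. NRF2, encoded by Nfe2l2, is a transcription factor held low by Keap1 and released by oxidants and electrophiles; its classical targets include Gclc, Gclm, Gsr, Txnrd1, Nqo1 and Srxn1. Cth is known as a target of ATF4, the transcription factor of the amino acid and stress response, and Slc7a11 is known as a target of both factors.

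Promoter windows of 3 members are shown because they carry short sequences that ATF4 or NRF2 can recognise; they come from RefSeq on build GRCm38.p6 and run from 250 bases before to 50 bases after the annotated start, 5′ to 3′ on the gene's strand. Capitals mark matches to 3 motifs searched on both strands: the C/EBP-ATF response element TGATGNAA, the antioxidant response element core TGACNNNGC and the AP-1 site TGACTCA. The Slc7a11 window lies at chr3:50443564-50443863 on the minus strand, the Srxn1 window at chr2:152105274-152105573 on the plus strand, and the Gclm window at chr3:122245307-122245606 on the plus strand.
Slc7a11: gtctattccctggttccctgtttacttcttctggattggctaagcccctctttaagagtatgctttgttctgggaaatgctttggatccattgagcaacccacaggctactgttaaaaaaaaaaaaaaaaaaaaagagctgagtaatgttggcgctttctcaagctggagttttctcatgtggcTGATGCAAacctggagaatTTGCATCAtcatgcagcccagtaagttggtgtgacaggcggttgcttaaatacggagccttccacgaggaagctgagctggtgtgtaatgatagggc
Srxn1: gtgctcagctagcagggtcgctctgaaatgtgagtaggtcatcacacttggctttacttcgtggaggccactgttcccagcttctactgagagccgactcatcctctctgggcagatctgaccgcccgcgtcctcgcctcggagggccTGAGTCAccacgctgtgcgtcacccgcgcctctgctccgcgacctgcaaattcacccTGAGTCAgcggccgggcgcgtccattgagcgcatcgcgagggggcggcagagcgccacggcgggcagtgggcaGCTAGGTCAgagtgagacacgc
Gclm: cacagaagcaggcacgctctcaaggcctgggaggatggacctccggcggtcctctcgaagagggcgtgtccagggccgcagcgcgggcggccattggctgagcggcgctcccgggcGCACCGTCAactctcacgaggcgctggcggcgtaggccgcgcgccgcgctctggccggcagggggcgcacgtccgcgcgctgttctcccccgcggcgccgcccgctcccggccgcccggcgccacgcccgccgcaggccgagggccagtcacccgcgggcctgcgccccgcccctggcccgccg

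The Slc7a11 window held the C/EBP-ATF element at 2 places, from -66 to -59 on the gene's strand and from -47 to -40 on the other strand, counted from the start. Of 32851 windows of the same length, 3.97% held that motif at least once. The Srxn1 window had 1 antioxidant core, from 29 to 37 on the other strand, and AP-1 sites from -102 to -96 and from -45 to -39, also on the other strand. The Gclm window had 1 antioxidant core, from -134 to -126 on the other strand, and the second of 3 Txnrd1 windows had 1 from -92 to -84. The antioxidant core was found in 12.4% of all windows and the AP-1 site in 5.20%. The windows of Cbs, Gss and Nqo1 and the other 2 Txnrd1 windows had none of these letters, which says nothing about binding elsewhere. Windows were matched for 7 of the 10 members; those of Cth, Gclc and Gsr are not analysed here. These matches are letters in a window and were not tested as binding sites.

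The values are linear signals of Mouse 430 2.0 arrays, whose mean after trimming was the same on every array; the number of arrays limits the precision. Itga7, the gene of the construct, was at 693 ± 29.9 on the arrays labelled induced and 792 ± 17.2 on the noninduced arrays (SD, n = 3 each), so its 1 probe set was lower where the label says induced (log2 difference -0.19, SE 0.058, limma adjusted p = 0.178), and directions below rest on the labels. By gaps between hybridisation times, induced replicate 1 was taken to share a fluidics run with all 3 noninduced arrays, and induced replicates 2 and 3 to be run later. The later run thus held induced arrays only, so run is partly mixed with group. Scan order was not analysed here, so its part in the differences cannot be told apart from that of group. Array medians were 22.8 to 24.8 on induced arrays and 24.9 to 27.7 on noninduced arrays. All 7 myoblast markers were above the filter and none was past the test, with summed levels of 18377 to 19351 on induced and 18407 to 19549 on noninduced arrays. Most of these sums was Vim, at 13805 ± 420 on induced and 13978 ± 543 on noninduced arrays (SD, n = 3 each). All induced arrays lay below all noninduced arrays for Myod1 and Itga7 and above them for Ncam1, and the groups of the other myoblast markers overlapped. Of 6 myotube markers, 2 were above the filter, with sums of 235 to 279 on induced and 241 to 300 on noninduced arrays. Summed macrophage markers (4 probe sets, 3 above the filter, Ptprc at most 10.4) were 251 to 269 on induced and 275 to 314 on noninduced arrays, those of endothelial cells (0 of 3 above it) 25.7 to 30.5 on induced and 31.3 to 42.7 on noninduced arrays, and those of adipocytes (0 of 2) 4.99 to 11.9 on induced and 14.1 to 33.2 on noninduced arrays. Epithelial markers (1 of 3 above the filter) summed to 69.8 to 75.2 on induced and 66.9 to 113 on noninduced arrays. The 3′ to 5′ signal ratio, a sign of RNA integrity, was 0.761 to 0.782 on induced and 0.788 to 0.802 on noninduced arrays for Gapdh, and for Actb at least 1.117 on induced and at most 1.108 on noninduced arrays. The part of these differences in the results was not tested.

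Cth had the highest log2 difference among the 19 tested probe sets of these genes. Its 1 probe set, 1426243_at, read 423, 472 and 551 on induced replicates 1, 2 and 3, against 287, 267 and 314 on noninduced replicates 1, 2 and 3. The lowest induced array lay above the highest noninduced one. Mean signal was 482 ± 64.4 on induced arrays and 289 ± 23.5 on noninduced arrays (SD, n = 3 each), a ratio of 1.67. The log2 difference, induced minus noninduced on log2(signal + 16), was 0.70 with a standard error of 0.097, which ranked 25 from the top among the 22518 probe sets bright enough to be tested. Cth was past the adjusted threshold of 0.05 in the limma fit over the whole table, and it was the only member that was. Within the first fluidics run the difference was 0.53, resting on induced replicate 1 alone, and it was not past the threshold there. Its call was also lost without noninduced replicate 2 (0.65), induced replicate 1 (0.79) or induced replicate 2 (0.71).

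Slc7a11 had the next highest difference among the tested member probe sets, at a signal close to the filter. The xCT probe set 1420413_at read 42.6, 56.1 and 38.2 on induced replicates 1, 2 and 3, against 30.1, 21.6 and 25.7 on noninduced replicates 1, 2 and 3. All induced arrays lay above all noninduced arrays. Mean signal was 45.6 ± 9.36 on induced arrays and 25.8 ± 4.23 on noninduced arrays (SD, n = 3 each), a ratio of 1.77, and the log2 difference was 0.55 with a standard error of 0.186, which was not past the threshold. Because the signal is close to the constant added before taking logs, the difference was 0.79 with a constant of 1 and 0.29 with a constant of 64. The second Slc7a11 probe set, 1443536_at, was below the filter and read 14.0, 23.9 and 20.0 on induced arrays, against 2.95, 8.21 and 1.17 on noninduced arrays. Its groups did not overlap either, with means of 19.3 ± 5.01 on induced and 4.11 ± 3.66 on noninduced arrays (SD, n = 3 each), but probe sets below the filter were not tested.

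Cbs, which acts one step ahead of Cth in the same route, gave no such separation. Probe set 1423844_s_at read 25.3, 24.9 and 37.0 on induced replicates 1, 2 and 3, against 38.7, 30.8 and 32.4 on noninduced replicates 1, 2 and 3. These groups overlapped, with means of 29.1 ± 6.90 on induced and 34.0 ± 4.13 on noninduced arrays (SD, n = 3 each) and a log2 difference of -0.16 (SE 0.189), smaller than its standard error. The other Cbs probe set, 1425623_a_at, was below the filter, at 3.0, 4.72 and 4.68 on induced arrays and 18.2, 3.56 and 4.45 on noninduced arrays. The plot of signals by array sets these genes beside the others.

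**Figure D1:**
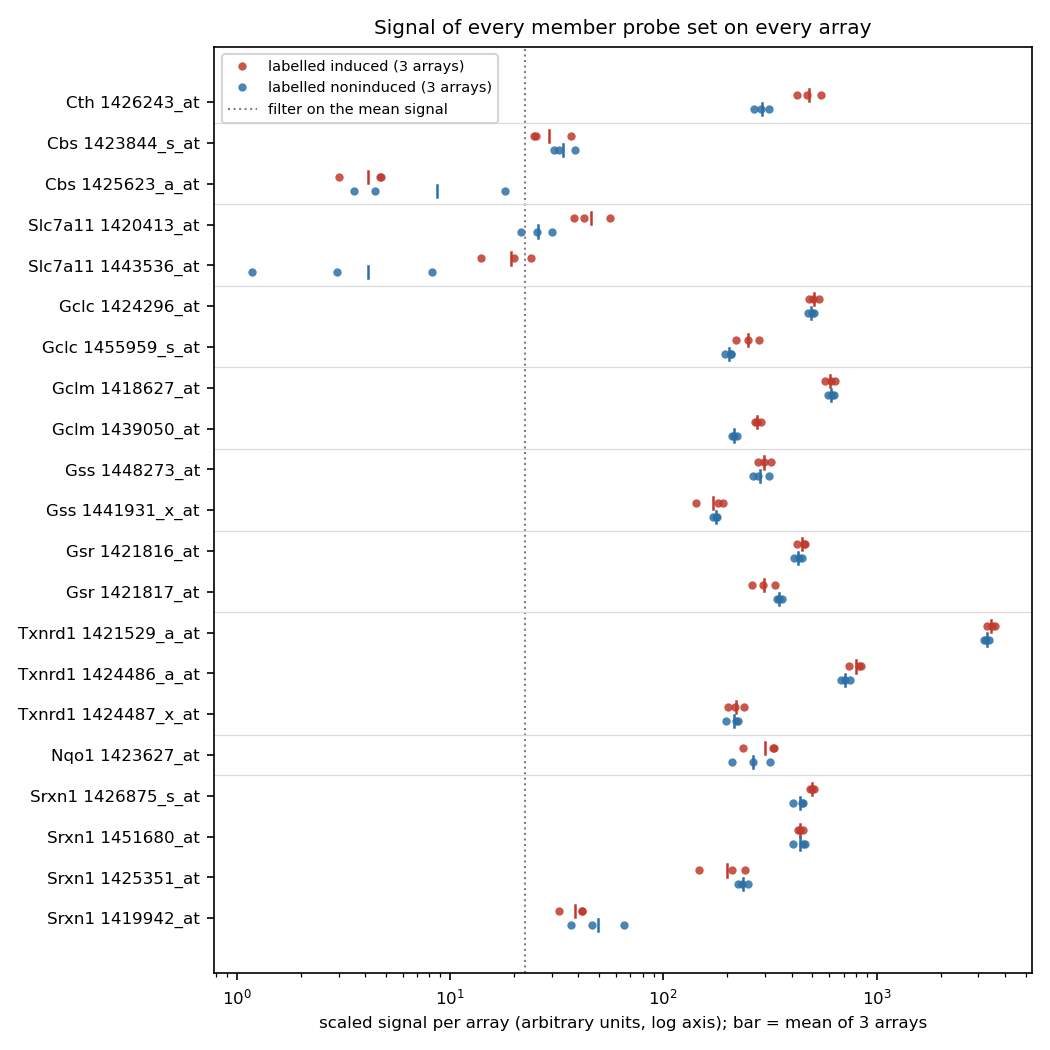
Deposited signal (log axis, scaled arbitrary units) of all 21 member probe sets, with a point for each induced array (red, upper) and noninduced array (blue, lower), a bar at each mean of 3 arrays and a dotted line at the filter. The induced arrays of Cth lie between 423 and 551, above the noninduced arrays at 267 to 314, while the groups of Nqo1 overlap.

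The enzymes of glutathione synthesis gave readings that depended on the probe set. For Gclc, the brighter probe set 1424296_at averaged 508 ± 27.5 on induced and 494 ± 14.7 on noninduced arrays (SD, n = 3 each), a log2 difference of 0.04 with overlapping groups. Its second probe set, 1455959_s_at, read 248, 280 and 219 on induced replicates 1, 2 and 3, against 207, 195 and 208 on noninduced replicates 1, 2 and 3. The groups of that probe set did not overlap, and its log2 difference was 0.27 (SE 0.096).

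Gclm split in the same way. Its brighter probe set 1418627_at averaged 608 ± 34.1 on induced and 613 ± 22.1 on noninduced arrays, a log2 difference of -0.01 with overlapping groups. Its second probe set, 1439050_at, read 274, 287 and 268 on induced replicates 1, 2 and 3, against 221, 215 and 211 on noninduced replicates 1, 2 and 3. Here the groups stood apart with little spread, at 277 ± 9.67 on induced and 216 ± 5.51 on noninduced arrays (SD, n = 3 each), and the log2 difference was 0.34 (SE 0.078). It was not past the threshold of 0.05, but was past it when each array was centred on its median, with a difference of 0.43. Gss, glutathione synthetase, averaged 298 ± 22.0 on induced and 285 ± 24.5 on noninduced arrays by probe set 1448273_at (log2 difference 0.06) and 171 ± 24.7 on induced and 176 ± 4.50 on noninduced arrays by 1441931_x_at (log2 difference -0.05), with overlapping groups in both.

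Among the enzymes that recycle thiols, Gsr, which regenerates reduced glutathione, had probe sets of opposite sign. Probe set 1421816_at averaged 448 ± 19.1 on induced and 430 ± 19.7 on noninduced arrays (log2 difference 0.06), with overlapping groups. Probe set 1421817_at read 260, 333 and 294 on induced replicates 1, 2 and 3, against 340, 362 and 349 on noninduced replicates 1, 2 and 3. All induced arrays of the second one lay below all noninduced arrays, and its log2 difference was -0.24 (SE 0.090). Txnrd1, cytosolic thioredoxin reductase, averaged 3453 ± 146 on induced and 3289 ± 88.8 on noninduced arrays by probe set 1421529_a_at (log2 difference 0.07). Its probe sets 1424486_a_at and 1424487_x_at differed by 0.17 and 0.03 on the log2 scale, and the groups overlapped in all 3.

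Srxn1, sulfiredoxin, which repairs overoxidised peroxiredoxins, had the most divided probe sets. Probe set 1426875_s_at read 488, 498 and 508 on induced replicates 1, 2 and 3, against 451, 449 and 407 on noninduced replicates 1, 2 and 3, a log2 difference of 0.19 (SE 0.067) with groups that did not overlap. Probe set 1451680_at averaged 439 ± 11.3 on induced and 439 ± 31.0 on noninduced arrays (SD, n = 3 each), a difference of 0.00, and 1425351_at and 1419942_at both had a difference of -0.25 with overlapping groups. Nqo1, the quinone reductase often used as a readout of NRF2, read 330, 237 and 328 on induced replicates 1, 2 and 3, against 315, 265 and 209 on noninduced replicates 1, 2 and 3. Its replicates were spread more widely than the groups differed, with a log2 difference of 0.18 (SE 0.145).

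Of the 21 probe sets, 19 were bright enough to be tested, and 1 (Cth) was past the threshold higher and 0 lower, where 0.12% of all tested probe sets were past it higher and 0.0799% lower. All induced arrays lay above all noninduced arrays in 5 of the 19 and below them in 1, where 9.64% and 10.6% of all tested probe sets did so. By each gene's brightest probe set, 1 of 10 genes was higher and 0 lower, against 0.195% and 0.112% of 10757 genes. The differences that led to the choice of these genes are part of those counts, so nothing is read from them. The differences of the 19 ran from -0.25 to 0.70, with 13 above 0, 6 below it and a median of 0.06, while the median over all tested probe sets was -0.01. Of the 6 genes with several tested probe sets, the sign differed between probe sets in 4 (Gclm, Gss, Gsr and Srxn1), and the probe sets of a gene were 0.11 to 0.44 apart. With arrays centred on their medians, which put the median over all tested probe sets at 0.08, 15 of the 19 were above 0, 4 below it, and the sign differed within 2 genes (Gsr and Srxn1). The plot of differences shows this spread within genes.

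**Figure D2:**
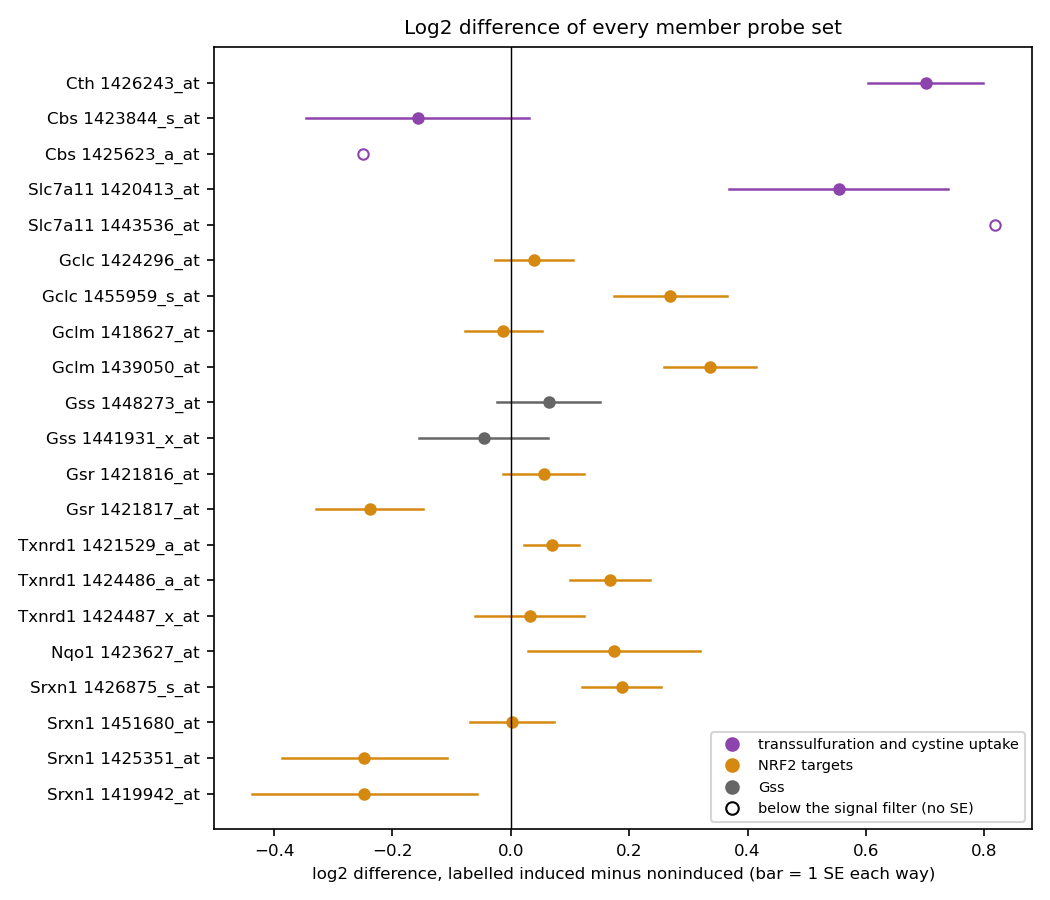
Log2 difference, induced minus noninduced on log2(signal + 16), of each member probe set, coloured by class, with bars of 1 standard error each way for the 19 tested ones and open circles for the 2 below the filter. Cth stands at 0.70 and the tested Slc7a11 probe set at 0.55, while the probe sets of Gsr and Srxn1 fall on both sides of 0, as do those of Gclm and Gss, though not with arrays centred on their medians.

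The transsulfuration and cystine uptake genes can be set beside the NRF2 targets array by array. Relative to the noninduced mean, the mean log2 level of Cth, Cbs and Slc7a11 was 0.25, 0.39 and 0.45 on induced replicates 1, 2 and 3, against 0.09, -0.11 and 0.02 on noninduced replicates 1, 2 and 3. For Cth and Slc7a11 without Cbs it was 0.51, 0.74 and 0.64 on induced arrays, against 0.07, -0.13 and 0.06 on noninduced arrays. For the 6 NRF2 targets Gclc, Gclm, Gsr, Txnrd1, Nqo1 and Srxn1 it was 0.13, 0.06 and 0.07 on induced arrays, against 0.05, 0.04 and -0.09 on noninduced arrays. The induced arrays were above the noninduced arrays in each of these means, a direction that the choice of Cth and Slc7a11 fixes in the means that hold them. Of all tested probe sets taken singly, 9.64% separated that way. No such share was worked out for means over several genes, so the 9.64% is no background for them. The median over the 6 NRF2 targets overlapped, at 0.10, 0.09 and -0.0044 on induced arrays and 0.0091, 0.043 and -0.057 on noninduced arrays. The mean of Gclc and Gclm overlapped too, at 0.049, 0.056 and -0.065 on induced arrays and -0.024, 0.042 and -0.018 on noninduced arrays. The median gene difference was 0.55 over the first 3 genes and 0.06 over the 6 NRF2 targets, of which 5 were positive, 1 was negative (Gclm, positive with arrays centred on their medians) and none was past the threshold. As the middle of 3 values, the 0.55 is that of the dim Slc7a11 probe set 1420413_at alone, which was not past the threshold. The NRF2 median was 0.16 with arrays centred on their medians and 0.12 with the mean of each gene's probe sets. No p is given for this contrast, since the genes were chosen for it.

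**Figure D3:**
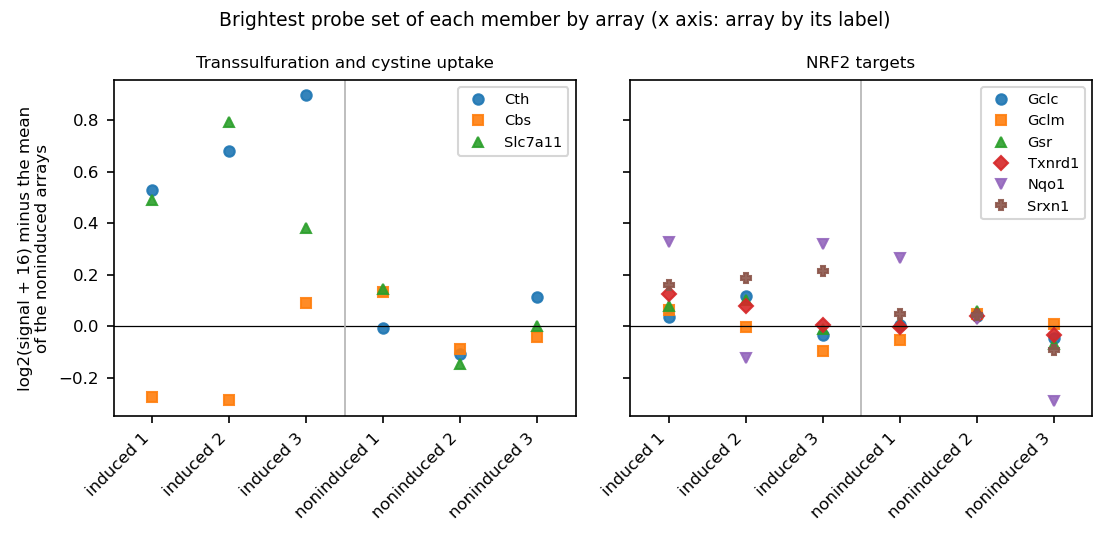
Log2(signal + 16) of each gene's brightest probe set on each array, minus its mean over the noninduced arrays, for the 3 transsulfuration and cystine uptake genes (left panel) and the 6 NRF2 targets (right panel). Cth and Slc7a11 are higher on all induced arrays than on any noninduced array and Cbs is not, while most NRF2 targets lie near 0 and Nqo1 varies most within both groups.

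Wider lists of the same pathways were examined in the fit over all probe sets, each gene by its brightest probe set. They held 139 genes, of which 127 had a probe set of their own and 108 were tested. Past the adjusted threshold, 3 of the 108 were higher (Chac1, Ddit3 and Nupr1) and 0 were lower, where 0.195% of all 10757 genes were higher and 0.112% lower. The lists were chosen with these results known, so nothing is read from that share or from the counts of single lists.

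Around transsulfuration, 0 of 14 tested genes of the methionine cycle and of cysteine use were past the test, with 9 above 0, 5 below it and a median difference of 0.08. The largest differences were 0.24 for Mat2b, the regulatory subunit of methionine adenosyltransferase (limma adjusted p = 0.216), and 0.19 for Ado, a cysteamine dioxygenase (limma adjusted p = 0.221). Ahcy, which releases homocysteine, had -0.05 (0.042 with arrays centred on their medians), and its relative Ahcyl1 0.06.

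For cystine and cysteine transport, 0 of 4 tested genes were past the test, all 4 had differences above 0, and the median was 0.21. Slc3a2, the heavy chain that carries Slc7a11 to the cell surface, read 1405, 1465 and 1604 on induced replicates 1, 2 and 3, against 1206, 1236 and 1191 on noninduced replicates 1, 2 and 3. Its groups did not overlap, and its difference of 0.29 had an adjusted p of 0.0615 in limma. Slc1a4, a transporter of small neutral amino acids that include cysteine, had 0.27 by its brightest probe set and 0.57 and 0.30 by the others, with induced arrays above noninduced arrays in all 3 and none past the threshold.

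For glutathione use and breakdown, 1 of 20 tested genes was higher and 0 lower, with 7 differences above 0, 13 below it and a median of -0.03. The 1 was Chac1, an enzyme that cleaves glutathione in the cytosol and is known as a target of ATF4 and CHOP. Chac1 read 593, 643 and 706 on induced replicates 1, 2 and 3, against 379, 414 and 457 on noninduced replicates 1, 2 and 3. Its difference was 0.62 (SE 0.084, limma adjusted p = 0.0147), and the call was lost within the first fluidics run (0.50) and without noninduced replicate 2 (0.61), induced replicate 1 (0.68) or induced replicate 2 (0.62). Anpep, an aminopeptidase of the cell surface, had 0.52 (limma adjusted p = 0.256) at a dim signal of 46.2 ± 12.1 on induced and 27.0 ± 4.07 on noninduced arrays. Gpx4, which reduces lipid peroxides with glutathione, had -0.01 by its brightest probe set and 0.11 by the other, and Glrx5, a mitochondrial glutaredoxin, had -0.04; under median centring both negative signs turned.

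Of 28 other tested NRF2 targets, 0 were past the test in either direction, with 20 above 0, 8 below it and a median of 0.03. Tkt, transketolase, had 0.54 (limma adjusted p = 0.0537) by its brightest probe set but -0.01 by the other tested one. A further Tkt probe set, 1436605_at, below the filter, had -0.28 with overlapping groups. Gsta2, a glutathione transferase, had 0.44 with overlapping groups (limma adjusted p = 0.396). Hmox1, heme oxygenase, a classical NRF2 target named here after its value was seen, had 0.05. The 2 with the highest signal were Fth1, ferritin heavy chain, with 0.02 by its brightest probe set and -0.12 by the other, and Txn1, thioredoxin, with -0.03 (0.066 under median centring) and -0.17.

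Among NRF2 and its regulators, 0 of 12 tested genes were past the test, and the median was 0.12. Nfe2l2 averaged 817 ± 33.8 on induced and 726 ± 6.49 on noninduced arrays (SD, n = 3 each), with groups that did not overlap, a difference of 0.17 and a limma adjusted p of 0.215. Keap1, its repressor, had 0.07 and -0.17 by its probe sets. Of the ubiquitin ligase components that act on NRF2, Rbx1 had -0.35 (limma adjusted p = 0.351), Btrc 0.23 (limma adjusted p = 0.393) and Cul3 0.13 (limma adjusted p = 0.381). Dimmer probe sets gave other signs, at -0.68 and -0.04 for Btrc, and the lowest of Cul3 was at -0.18.

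Among ATF4 and its regulators, 2 of 14 tested genes were higher and 0 lower, with a median of 0.19. Ddit3, which encodes CHOP, averaged 382 ± 19.5 on induced and 252 ± 17.9 on noninduced arrays (SD, n = 3 each), a difference of 0.57 with a limma adjusted p of 0.0147. Nupr1, a stress-induced transcriptional regulator, averaged 620 ± 37.0 on induced and 454 ± 14.3 on noninduced arrays (SD, n = 3 each), a difference of 0.43 with a limma adjusted p of 0.022. The other probe set of each was not past the test, at 0.46 for Ddit3 (limma adjusted p = 0.228) and 0.30 for Nupr1 (limma adjusted p = 0.111). Trib3, a pseudokinase induced by ATF4, had 0.70 by its brightest probe set (limma adjusted p = 0.0537) and 1.06 by 1426065_a_at, which was past the test (limma adjusted p = 0.00521), also with any 1 array left out, but not within the first fluidics run (1.09). Atf4 transcript itself had 0.09 by its brightest probe set and 0.25 by the other tested one, and Cebpb, a partner of ATF4, had 0.27 and 0.19. None of these was past the test. A further Atf4 probe set, 1439258_at, was below the filter and not tested. It had -0.46, with all induced arrays below all noninduced arrays, at means of 3.74 on induced and 11.7 on noninduced arrays. The calls of Ddit3 and Nupr1 were lost within the first fluidics run (0.59 and 0.34) and with noninduced replicate 2 (0.61 and 0.41), noninduced replicate 3 (0.58 and 0.45), induced replicate 1 (0.56 and 0.48) or induced replicate 2 (0.61 and 0.41) left out, and that of Nupr1 also without induced replicate 3 (0.41).

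In the thioredoxin, peroxiredoxin and other antioxidant enzymes, 0 of 16 tested genes were past the test, with a median of -0.02. Txnip, which inhibits thioredoxin, had -0.47 (limma adjusted p = 0.266) at 27.2 ± 2.84 on induced and 44.0 ± 8.33 on noninduced arrays, and Cat, catalase, had 0.31 (limma adjusted p = 0.228) with overlapping groups. Txnl1, a thioredoxin-like protein, had -0.01 and Prdx2, a peroxiredoxin, -0.07; both were above 0 under median centring. The plot of the pathway lists shows the differences gene by gene.

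**Figure D4:**
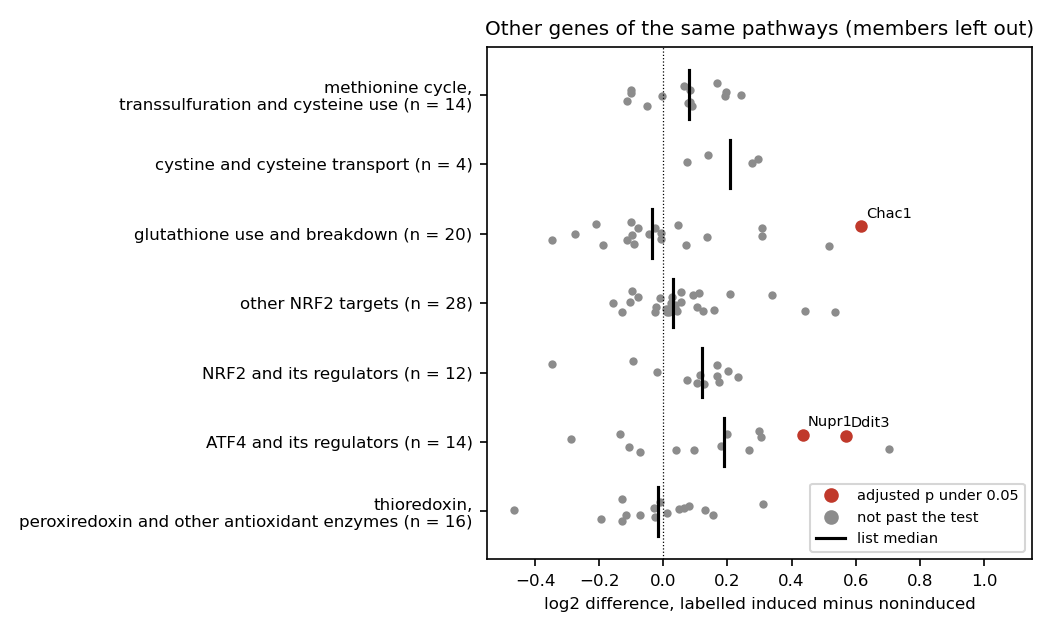
Log2 difference, induced minus noninduced, of each tested gene of the 7 pathway lists (a point each, by its brightest probe set, members left out), with a vertical bar at each list's median. Red points are the 3 genes past the adjusted threshold, Chac1 at 0.62, Ddit3 at 0.57 and Nupr1 at 0.43.

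Over the 6 arrays, the probe sets nearest to that of Cth in pattern were those of Chac1, Stbd1, Ints10, Srfbp1 and Acot2. Nearness was the root mean square difference of log2 levels, each centred on its own mean, among 19824 tested probe sets with 1 gene. It was 0.085 for Chac1, 0.099 for Stbd1, 0.118 for Ints10, 0.12 for Srfbp1 and 0.128 for Acot2. They were selected for likeness to Cth on these same arrays, which fixes their direction, so their differences are a description. These were 0.62 for Chac1, 0.62 for Stbd1, 0.53 for Ints10, 0.62 for Srfbp1 and 0.74 for Acot2. Chac1 and Stbd1 were past the adjusted threshold, and Ints10, Srfbp1 and Acot2 were not. Ints10 was dim, at 33.9 ± 8.03 on induced and 18.3 ± 3.88 on noninduced arrays (SD, n = 3 each). Its noninduced mean lay below the filter signal of about 22.6, so it was tested only through its induced arrays.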

How the data were processed

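Total RNA of each sample was measured on 1 Affymetrix Mouse 430 2.0 array, and samples were grouped by their titles. Each deposited value is the linear intensity that the authors computed for a probe set; the submitters' processing notes name GCOS 1.1.1, and detection calls are not analysed here. Instrument records (deposited, unit other) gave the time of day of each hybridisation step. The fluidics run was inferred from these times, with a new run where the gap was over 30 minutes. After 64 control probe sets were set aside, 45037 remained: the platform annotation gave 34945 of them 1 gene, 932 several and 9160 none here. Levels were log2(intensity + 16), which understates differences of dim probe sets. The 22518 probe sets with a mean log2 level above the median (a signal of about 22.6) were tested in R 4.3.3 with limma 3.58.1, using moderated variances that follow a trend with signal and Benjamini-Hochberg adjustment over all of them at 0.05. The members and lists were chosen with earlier results of these data known, so members carry no p-value. Genes named are the members; of each list, those past the threshold, the 2 with the largest difference and the 2 with the highest signal; Atf4, Nfe2l2, Keap1 and Itga7; and the 5 nearest to Cth. Hmox1 falls outside this rule. The steps were tested on simulated data. No 2 arrays held the same values. Over all tested probe sets, same-numbered arrays deviated with correlations of 0.01, -0.06 and -0.01, and replicate number was not used as a block. Correlations over all probe sets cannot exclude a pairing that bears on some genes. Alternatives changed the scaling, filter, added constant, variance model, blocks, arrays, threshold and choice of probe set.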

Additional observations from a re-analysis of the deposited data

How the results depend on the processing

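Cth had a positive log2 difference, induced minus noninduced, under all 18 alternatives run for it, at 0.53 to 0.79. The filter, the variance model and the replicate block cannot change that difference. Blocking the fluidics run and using the first run alone give the same one. Cth was also chosen with its difference known, so nothing is read from the count. Whether it passed the threshold depended on the fit. Counts of probe sets past the threshold over the whole table, of members and of list genes are given in that order, against 45, 1 and 3 as reported. They were 306, 2 and 8 with arrays centred on their medians (294 higher, 12 lower, against 27 and 18 as reported; the median over all tested probe sets was then 0.08), and 239, 2 and 7 at a threshold of 0.10, the second member being Gclm both times. They were 1, 0 and 0 without the filter, 0, 0 and 0 without a variance trend, and 0, 0 and 0 with fluidics run blocked and in the first run alone; in those last 3 limma fits 2818, 1918 and 1978 probe sets had an unadjusted p under 0.05. With the replicate block, these counts were 7, 1 and 1, the member being Cth and the list gene Chac1. A filter at the 75th percentile gave 103 probe sets and 6 list genes, array weights 88 and 5, robust moderation 76 probe sets, a constant of 64 gave 73, and averaging probe sets per gene gave 5 list genes. Leaving out 1 array gave 1 to 58 probe sets, 0 to 1 members and 0 to 5 list genes. The median of the transsulfuration and cystine uptake genes was 0.73 with a constant of 1, 0.29 with 64 and 0.44 to 0.63 with 1 array left out. It is the middle of 3 values, so each time it is that of 1 gene, Slc7a11 or Cth. The median of the NRF2 targets was 0.16 with median centring, 0.12 with the mean of probe sets and 0.03 to 0.10 with 1 array left out.

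Median centring turned the sign of Ahcy (0.042), Glrx5 (0.048), Gpx4 (0.087), Prdx2 (0.019), Txn1 (0.066) and Txnl1 (0.082). With 1 array left out, Fth1 ran from -0.0097 (without induced replicate 1) to 0.048, Gpx4 from -0.064 to 0.030 (above 0 without noninduced replicate 1, induced replicate 1 or induced replicate 2) and Txnl1 from -0.040 to 0.0041 (above 0 without noninduced replicate 1 or 2). Of 378 member values over these settings, 26 moved by more than the replicate spread. The 378 include settings that cannot change a difference, so the share that stayed is no measure of stability. In at least 1 setting, 6 member probe sets changed sign: 1418627_at of Gclm and 1451680_at of Srxn1 in 6 each, 1441931_x_at of Gss and 1424487_x_at of Txnrd1 in 4 each, 1448273_at of Gss in 2 and the dim 1425623_a_at of Cbs in 1. A further 546 values covered only the list genes named for their call, difference or signal, with Keap1 and Itga7, and not all genes of the lists. Of these 546, 494 kept direction and call, 26 lost the call, 14 gained it and 12 turned. The cause of these changes was not tested. The added constant bears most on member probe sets with mean signals below 50, those of Cbs and Slc7a11 and 1419942_at of Srxn1.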
